A study of Mus musculus with 7 samples.

Results

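The genes of the mitochondrial ribosomal proteins were examined in mouse tumours treated with Ze-qi decoction (ZQD, a herbal decoction) or left untreated. They were taken as all genes of the deposited FPKM tables whose Ensembl identifier has a mouse symbol starting with Mrpl or Mrps and a number, without pseudogenes. This gave 77 of 32212 genes, 48 named for the large subunit (Mrpl) and 29 for the small subunit (Mrps). FPKM are fragment counts scaled by gene length and by library size. All 77 genes had at least 0.5 FPKM in at least 3 libraries and were tested together with 14838 genes in all. Mrpl53 was not analysed here.

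The tumours were subcutaneous growths of Lewis lung carcinoma, a C57BL mouse lung tumour line, in the axilla of wild-type C57BL/6J mice injected at 6 weeks of age. Treatment groups were assigned 3 days later, and 8 mice per group are stated. Control mice (4 libraries) received no treatment, and ZQD mice (3 libraries) received the high dose of 42.67 g/kg. Tumours were taken on day 22 after modelling according to the sample labels, and on day 21 after treatment according to the series text. Poly(A) RNA of whole tumour pieces was sequenced, and the labels do not say whether each library came from its own mouse. The p-values therefore weigh only library-to-library spread, which may be technical.

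Mitochondria keep their own ribosome, which descends from that of bacteria and translates the few proteins encoded in mitochondrial DNA, all of them parts of the respiratory chain or ATP synthase. Its ribosomal RNAs are transcribed inside the mitochondrion, whereas every one of its proteins is encoded in the nucleus, made in the cytosol and imported. Some of these proteins have bacterial counterparts, and others were added in the course of mitochondrial evolution.

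The libraries held 32065288 to 49914394 reads in controls and 34765330 to 38673663 reads in ZQD, and the 77 genes took 0.198 to 0.230% of them. Each member had between 127 and 4871 reads in a library, with a median of 834. Mitochondrially encoded genes took 5.18 to 7.96% of reads in controls and 8.78 to 11.09% in ZQD, a difference that enters every FPKM through its denominator. Summed macrophage and monocyte markers (8 of 8 measured) lay at 735 to 1065 FPKM in controls and 1087 to 1393 FPKM in ZQD. Of the 8, 3 (37.5%) had all ZQD libraries above all controls, against 5.35% of all tested genes, and the rest had overlapping groups. Lyz2 was among the 3, at 115 to 326 FPKM in controls and 362 to 538 FPKM in ZQD. C1qa was among the rest, at 156 to 174 FPKM and 162 to 163 FPKM. Summed muscle markers (8 of 8 measured) lay at 2.14 to 27.4 FPKM in controls, highest in control 1, and at 2.69 to 9.33 FPKM in ZQD. ZQD 2 stood apart in summed markers of neutrophils (75.6 FPKM, controls 13.4 to 32.5), fibroblasts (139 FPKM, controls 8.97 to 65.3) and erythroid cells and platelets (379 FPKM, controls 62.7 to 224), and ZQD 1 in those of adipocytes (44.5 FPKM, controls 2.14 to 5.53). Summed epithelial carcinoma markers (Krt8, Krt18, Epcam and Cdh1, 4 of 4 measured) were low in every library, at 1.33 to 1.93 FPKM in controls and 0.956 to 1.66 FPKM in ZQD, and no marker list had a gene at 0 in all libraries. The part of these cell types in the results on the 77 genes was not tested. In whole tissue, fewer cells of a type and less RNA per cell cannot be told apart.

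Promoter windows, 250 bases before to 50 after the RefSeq start of each gene on GRCm38.p6, were found for 68 of the 77 genes. Nuclear genes for mitochondrial proteins are known to carry sites for NRF1 (nuclear respiratory factor 1), for ETS factors such as GABP, and for YY1 near their start. The motifs searched on both strands were GCGCATGC for NRF1, CCGGAAG for ETS and AAGATGGC for YY1, which do not contain each other. A gene was counted if any of its windows held the motif. The ETS motif was found for 25 of the 68 genes (36.8%), the YY1 motif for 12 (17.6%) and the NRF1 motif for 8 (11.8%). At least 1 of them was found for 37 genes (54.4%). Among all 27025 genes with a window, the shares were 9.93% for ETS, 3.19% for YY1, 3.05% for NRF1 and 14.9% for any of the 3. Among the 9902 tested genes with a window they were 20.3%, 5.26%, 5.92% and 28.5%, so that the share among the ribosomal protein genes was the higher one for each motif. This difference was not tested.

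The following stretches of 90 bases place an ETS or NRF1 motif, in capitals, upstream of 4 of the members described below by small p. They are the first 4 in order of p with such a motif upstream and outside annotated exons. All 4 members were lower in ZQD. Mrps12, lower, and Mrpl18 and Mrpl32, higher, had smaller p and an ETS or NRF1 motif in a window, but not one that met this rule. Each is written 5′ to 3′ in the direction of its gene and holds no annotated exon. Mrpl17 is shown from chr7:105811248-105811337 on the minus strand, Mrpl52 from chr14:54426819-54426908 on the plus strand, Mrpl10 from chr11:97041408-97041497 on the plus strand and Mrps18a from chr17:46110896-46110985 on the plus strand.
Mrpl17: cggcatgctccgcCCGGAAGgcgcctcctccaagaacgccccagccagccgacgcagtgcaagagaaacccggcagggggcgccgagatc
Mrpl52: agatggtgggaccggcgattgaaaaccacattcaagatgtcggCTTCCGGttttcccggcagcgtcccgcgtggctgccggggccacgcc
Mrpl10: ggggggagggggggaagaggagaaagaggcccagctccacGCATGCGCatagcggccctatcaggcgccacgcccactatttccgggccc
Mrps18a: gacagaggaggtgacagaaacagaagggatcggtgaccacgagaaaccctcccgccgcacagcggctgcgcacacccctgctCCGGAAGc
The Mrpl17 and Mrps18a stretches hold the ETS motif as written, the Mrpl52 stretch holds its reverse complement, and the Mrpl10 stretch holds the reverse complement of the NRF1 motif, GCATGCGC. A match is a description of the letters and not of binding.

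None of the 77 genes differed between ZQD and control at a Benjamini-Hochberg adjusted p under 0.05. This was also so for all 14838 genes in limma (0%), and the smallest adjusted p of a member was 0.173, for Mrps12. At an unadjusted limma p under 0.05, 5 of the 77 genes (6.49%) were lower in ZQD (Mrps12, Mrps34, Mrps18b, Mrpl17 and Mrpl52), where 10.3% of all tested genes were. A further 4 (5.19%) were higher (Mrps5, Mrpl18, Mrpl32 and Mrps35), where 5.21% of all genes were. The members' shares were thus at or under the background. On reads rebuilt from the FPKM, edgeR and DESeq2 called 0 members. At an unadjusted p under 0.05, 2 members (2.60%) were lower and 4 (5.19%) higher in either tool. Of all genes, 7.33% were lower and 7.65% higher in edgeR, and 7.65% and 8.01% in DESeq2. DESeq2 called 3.85% of the 13099 genes that have an adjusted p, and its smallest adjusted p of a member was 0.0593, for Mrps5.

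The median log2 difference, ZQD minus control on log2(FPKM + 0.5), was -0.032 over the 77 genes, with 47 lower and 30 higher. Over all tested genes the median was -0.043. Large subunit genes had a median of -0.03 and ranged from -0.27 to 0.35, and small subunit genes had a median of -0.036 and ranged from -0.53 to 0.39. The medians of the subunits differed by 0.0057, less than the spread of that difference between libraries of a group (pooled SD 0.0306). Mrps30 and Mrps18a are named for the small subunit but sit in the large one, and Mrps36 is now counted as a subunit of the 2-oxoglutarate dehydrogenase complex. Assigned by structure, 50 large subunit genes had a median of -0.032 and 26 small subunit genes one of -0.043.

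**Figure D1:**
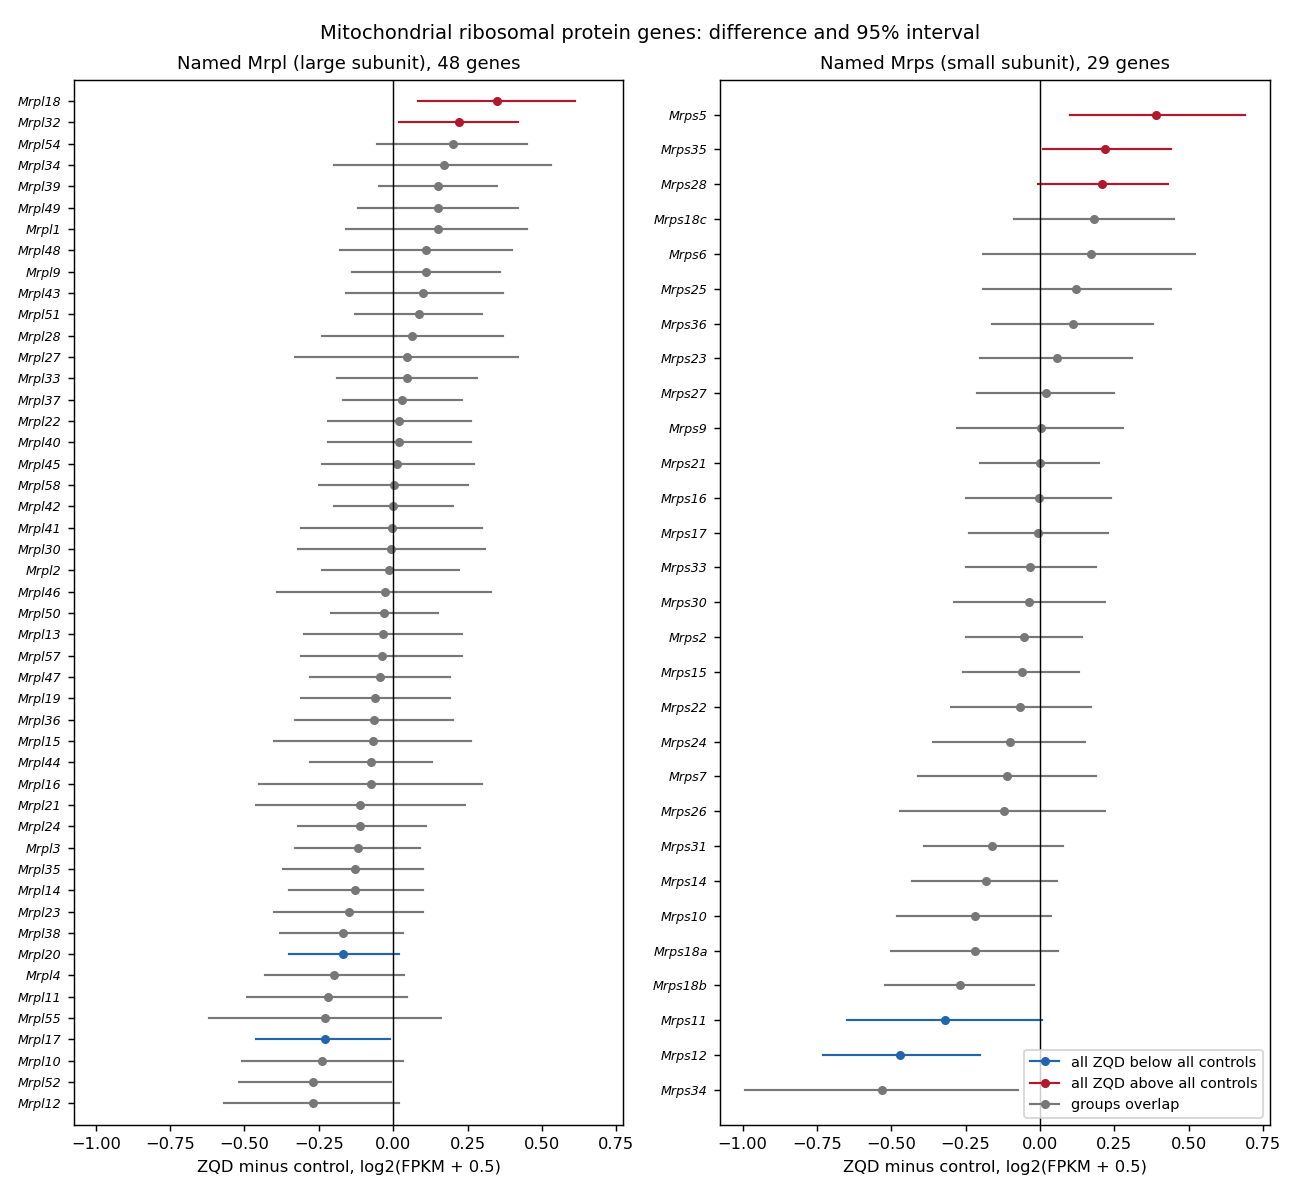
Difference between ZQD and control for each of the 77 genes on log2(FPKM + 0.5) (x axis), with points for the estimate and lines for the 95% interval of the limma fit, sorted within the genes named Mrpl (left, 48) and Mrps (right, 29). Blue marks the 4 genes with all ZQD libraries below all controls and red the 5 with all above; most of the remaining intervals include 0, and the widest is that of Mrps34.

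The precision of the comparison was similar for most members. Standard errors ran from 0.0780 to 0.201, with a median of 0.111 on the log2 scale. The 95% interval lay within a 1.5-fold change in either direction for 71 of the 77 genes, and within a 1.25-fold change for 27. For 4 genes it reached a 1.5-fold lower level (Mrps34, Mrps12, Mrps11 and Mrpl55), and for 2 a 1.5-fold higher level (Mrps5 and Mrpl18). Among controls the median coefficient of variation was 10.2% for members and 10.9% for the 9630 tested genes within the members' range of FPKM.

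How many members stood on each side depended on the scale. With FPKM rescaled to a constant sum per library (the TPM scale), 17 members (22.1%) were lower and 1 (1.30%) higher at an unadjusted p under 0.05, while all genes moved to 19.2% and 2.55% and the median of members and of all genes was -0.13. With median-of-ratios factors, 2 members (2.60%) were lower and 6 (7.79%) higher, against 7.29% and 7.39% of all genes. The members' median stayed within 0.016 of that of all genes under the TPM scale, TMM factors, median-of-ratios factors and a scaling that left out mitochondrially encoded genes. Single libraries moved the counts too. At that p, 1 member (1.30%) was lower without control 2 or without control 4, against 10.1% and 7.96% of all genes, and 2 members (2.60%) were lower without ZQD 1, against 8.49%. Higher members numbered 1 (1.30%) without ZQD 1, against 4.24% of all genes, and 2 (2.60%) without ZQD 3 or without control 1, against 4.93% and 4.39%.

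In 4 genes (5.19%) all ZQD libraries lay below all controls, where 9.84% of all tested genes did so, and in 5 (6.49%) all lay above, where 5.35% did. Under the TPM scale 11 members (14.3%) lay below and 1 (1.30%) above, against 17.9% and 2.51% of all genes. With median-of-ratios factors 2 (2.60%) lay below and 6 (7.79%) above, against 7.05% and 7.44% of all genes, and TMM factors gave the same counts of members. Leaving out a library, which makes such a gap easier to meet, gave up to 11 members below (14.3%, without ZQD 2 or ZQD 3) and up to 10 above (13.0%, without ZQD 2). Of all genes, 13.6% lay below without ZQD 2 and 17.2% without ZQD 3, and 9.51% lay above without ZQD 2.

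Mrps12 encodes the counterpart of bacterial S12, the protein at the decoding centre of the small subunit, and lies at chr7:28739641-28741820 (GRCm38, minus strand). It was at 14.4, 13.2, 12.1 and 11.5 FPKM in controls 1 to 4 and at 7.82, 9.42 and 10.2 FPKM in ZQD 1 to 3. Every ZQD library lay below every control, with ZQD 1 lowest. The log2 difference was -0.47 (SE 0.116, limma adjusted p = 0.173), between -0.55 and -0.37 with any 1 library left out, -0.57 on the TPM scale and -0.42 with median-of-ratios factors.

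Mrps11, the counterpart of S11 on the platform of the small subunit, lies at chr7:78783119-78792989 on the plus strand. It was at 3.86, 5.11, 3.92 and 4.00 FPKM in controls and 2.61, 3.73 and 3.54 FPKM in ZQD. The groups did not overlap, but ZQD 2 lay just under control 1, and control 2 stood above the other controls. The log2 difference was -0.32 (SE 0.144, limma adjusted p = 0.330), and -0.19 without ZQD 1.

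Mrps34, a mitochondria-specific protein of the small subunit, had the lowest log2 difference of all members, -0.53 (SE 0.201, limma adjusted p = 0.272). It was at 2.32, 3.24, 2.63 and 4.30 FPKM in controls and 1.67, 1.77 and 2.49 FPKM in ZQD. The groups overlapped, since ZQD 3 was above control 1. Its value is uncertain in a further way, because 1309 of its 2064 exon bases (63.4%) are shared with Mapk8ip3 on the opposite strand. Mapk8ip3 had a mean of 5629.7 reads, Mrps34 127 to 350, and the log2 difference of Mapk8ip3 was -0.36 (limma adjusted p = 0.178). The sources used here do not say whether the counting used strand.

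Mrpl17, the counterpart of L17 near the exit of the peptide tunnel, and Mrpl20, the counterpart of L20, were the large subunit genes with all ZQD libraries below all controls. Mrpl17 was at 3.69, 3.91, 3.69 and 4.41 FPKM in controls and 3.18, 3.19 and 3.40 FPKM in ZQD (log2 difference -0.23, SE 0.0980, limma adjusted p = 0.308). Mrpl20 was at 30.9, 32.3, 32.3 and 35.9 FPKM in controls and 30.8, 28.3 and 28.5 FPKM in ZQD (log2 difference -0.17, SE 0.0816, limma adjusted p = 0.369). For Mrpl20 the gap was narrow, between ZQD 1 and control 1.

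Mrpl10 and Mrpl12 form the stalk of the large subunit, which recruits translation factors, and Mrpl11 sits at its base, where Mrpl54 is also placed. Mrpl12 was the most abundant member, at 45.4, 56.5, 37.9 and 49.3 FPKM in controls and 36.7, 38.6 and 40.5 FPKM in ZQD. The groups overlapped at control 3, and the log2 difference was -0.27 (SE 0.130, limma adjusted p = 0.350). The log2 difference was -0.24 for Mrpl10 (limma adjusted p = 0.374; -0.15 without ZQD 2) and -0.22 for Mrpl11 (limma adjusted p = 0.399), and 0.20 for Mrpl54 (limma adjusted p = 0.422). The 4 stalk genes thus did not share a direction, and none had groups that did not overlap.

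Mrpl52 and Mrps18b, both mitochondria-specific, had unadjusted p under 0.05 with overlapping groups. Mrpl52 was at 14.0, 17.1, 14.7 and 17.6 FPKM in controls and 11.8, 14.4 and 13.0 FPKM in ZQD (log2 difference -0.27, limma adjusted p = 0.311). Mrps18b was at 10.5, 10.8, 9.03 and 12.1 FPKM in controls and 8.00, 9.13 and 8.90 FPKM in ZQD (log2 difference -0.27, limma adjusted p = 0.294). Each group overlap rested on ZQD 2 lying above the lowest control. Mrpl4 and Mrps10, with bacterial counterparts, followed at log2 differences of -0.20 (limma adjusted p = 0.392) and -0.22 (limma adjusted p = 0.386), the latter -0.33 without ZQD 2.

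Mammals have a trio of genes related to bacterial S18. Mrps18c is the member taken as the counterpart of S18, Mrps18b is a separate protein of the small subunit, and Mrps18a is built into the large subunit. Mrps18a was at 4.82 ± 0.543 FPKM in controls and 4.07 ± 0.565 FPKM in ZQD (SD, n = 4 and 3), a log2 difference of -0.22 (limma adjusted p = 0.420). Mrps18c was at 3.98 ± 0.387 FPKM in controls and 4.58 ± 0.580 FPKM in ZQD, a log2 difference of 0.18 (limma adjusted p = 0.486). Mrps18b was the most abundant of the trio in every library, and the 3 values did not share a direction. Mrps18b shares 30.5% and Mrps18c 23.2% of their exon bases with a predicted gene each.

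Mrps5, the counterpart of S5 at the mRNA entrance of the small subunit, had the highest log2 difference of all members. It lies at chr2:127587222-127606829 on the plus strand and was at 13.7, 18.3, 16.3 and 12.6 FPKM in controls and 20.1, 18.9 and 20.9 FPKM in ZQD. All ZQD libraries lay above all controls, and control 2 came closest to them. The log2 difference was 0.39 (SE 0.129, limma adjusted p = 0.231), between 0.31 and 0.48 with any 1 library left out and 0.29 on the TPM scale.

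Mrpl18, the counterpart of L18, is known to bind 5S RNA and to carry it towards mitochondria. It lies at chr17:12911349-12916345 on the minus strand and was at 16.9, 23.8, 19.4 and 20.5 FPKM in controls and 26.8, 24.4 and 25.7 FPKM in ZQD. The groups did not overlap, with control 2 just under ZQD 2. The log2 difference was 0.35 (SE 0.115, limma adjusted p = 0.232). Mrpl18 shares 141 of 1398 exon bases with Tcp1 on the opposite strand, whose log2 difference was -0.15 and whose mean was 11525 reads.

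Mrpl32, which is cleaved by the m-AAA protease before it joins the large subunit, was at 8.78, 10.2, 9.47 and 9.43 FPKM in controls and 12.0, 10.8 and 10.6 FPKM in ZQD (log2 difference 0.22, SE 0.0877, limma adjusted p = 0.287). Mrps35 was at 2.70, 2.98, 2.72 and 2.84 FPKM in controls and 3.54, 3.21 and 3.34 FPKM in ZQD (log2 difference 0.22, SE 0.0931, limma adjusted p = 0.307). Mrps28 was at 13.6, 14.6, 16.7 and 16.4 FPKM in controls and 18.5, 17.1 and 17.7 FPKM in ZQD (log2 difference 0.21, SE 0.0948, limma adjusted p = 0.332). Among the smaller positive differences, Mrpl1 had one of 0.15 (limma adjusted p = 0.633). Mrps6 had one of 0.17 (limma adjusted p = 0.644), and of -0.0057 without ZQD 1. Both had overlapping groups. Mrpl54, Mrpl39, Mrps18c and Mrpl49, described in other paragraphs, were also higher and had smaller p than Mrpl1 and Mrps6. In Mrpl32, Mrps35 and Mrps28 every ZQD library was above every control, by margins that were small beside the range of either group in Mrps28 and Mrpl32.

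**Figure D2:**
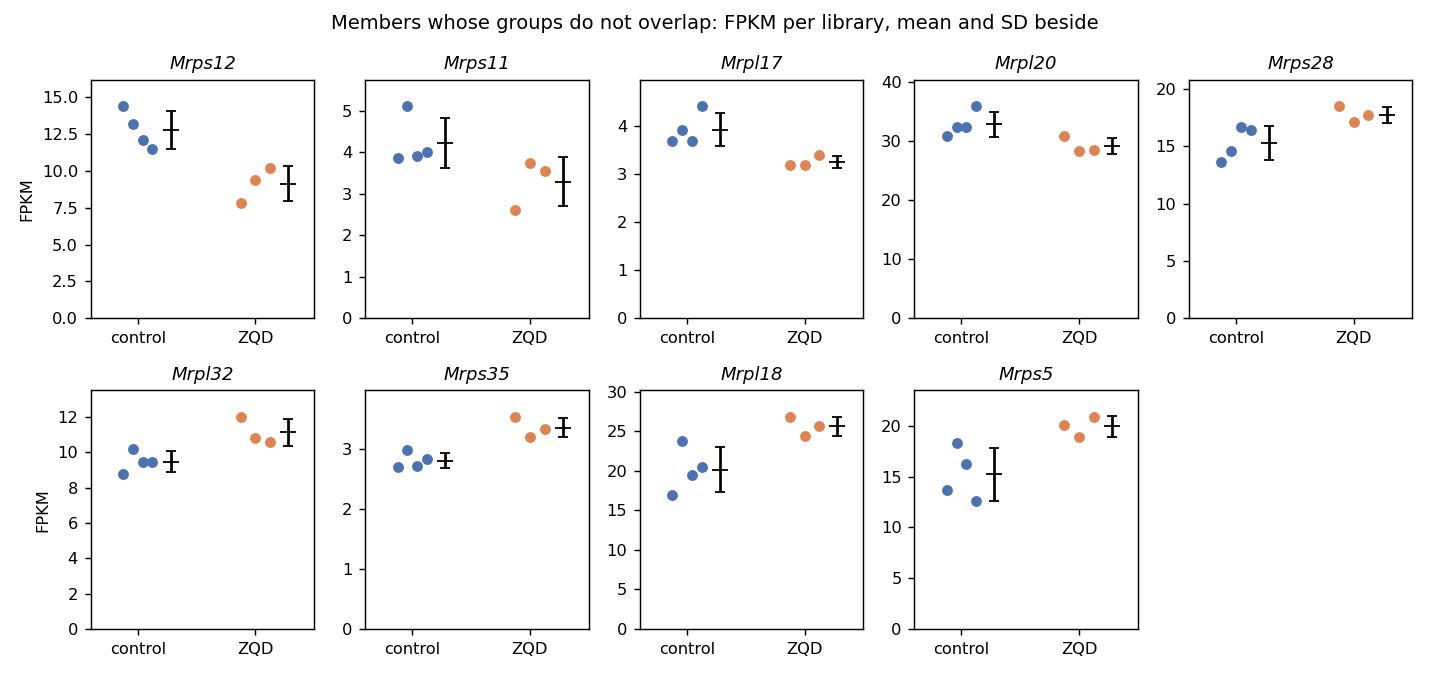
FPKM (y axis, from 0) of the 9 members whose groups do not overlap, with a point per library for 4 controls (blue) and 3 ZQD libraries (orange) and, beside each group, the mean and SD. Mrps12, Mrps11, Mrpl17 and Mrpl20 are lower in every ZQD library, and Mrps28, Mrpl32, Mrps35, Mrpl18 and Mrps5 are higher.

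By origin, 46 members with a bacterial counterpart had a median log2 difference of -0.062, with 32 lower and 14 higher. Among them 2 (4.35%) were lower and 3 (6.52%) higher at an unadjusted limma p under 0.05, against 10.3% and 5.21% of all tested genes. The 30 mitochondria-specific members had a median of -0.002, with 15 lower and 15 higher, of which 3 were lower and 1 higher at that p. The 8 members around the exit of the peptide tunnel had a median of -0.058. Mrpl17 alone among them (12.5%) had all ZQD libraries below all controls, against 9.84% of all tested genes, and the others had overlapping groups. Mrpl39, the exit tunnel member with the highest value, had a log2 difference of 0.15 (limma adjusted p = 0.431) and lay above the range of controls in ZQD 1 and ZQD 3 but not in ZQD 2, at 23.5 and 22.1 FPKM against at most 21.0 FPKM. By promoter motif, the median log2 difference was -0.00043 for the 25 members with the ETS motif, 0.033 for the 8 with the NRF1 motif and -0.082 for the 12 with the YY1 motif. The members without each of them had medians of -0.036, -0.032 and -0.021.

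The levels themselves spanned 20.3-fold, from a mean of 2.15 FPKM for Mrpl48 to 43.6 FPKM for Mrpl12, with a median of 8.81 FPKM. The median over all tested genes was 5.34 FPKM. After Mrpl12 came Mrps21 (34.9 FPKM), Mrpl22 (31.9 FPKM), Mrpl20 (31.3 FPKM) and Mrps15 (30.8 FPKM). Mrps21 is the counterpart of S21, Mrpl22 lines the peptide tunnel, and Mrps15 is the counterpart of S15, which binds the small subunit rRNA. Mrpl22, Mrpl20 and Mrps15 differed by less than their spread, at 31.8 ± 3.53, 32.8 ± 2.12 and 31.4 ± 2.35 FPKM in controls (SD, n = 4). Mrps23, a mitochondria-specific protein and the third most abundant of the small subunit, was at 22.8 FPKM. At the low end stood Mrpl48, Mrps34 (2.63 FPKM), Mrps35 (3.05 FPKM), Mrpl43 (3.22 FPKM) and Mrps30 (3.39 FPKM).

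Large subunit genes had a median of 9.59 FPKM and small subunit genes one of 8.22 FPKM. The ratio of these medians was 1.15 to 1.31 in controls and 1.18 to 1.19 in ZQD, so that the ZQD values lay within the range of controls. Most proteins of the ribosome are present as a single copy, whereas Mrpl12 is present in several. The lengths behind the FPKM are those of all annotated exons of a gene, 607 to 8631 bases with a median of 2533. Over the 77 genes, Spearman's rho with this length was -0.58 for mean FPKM and 0.46 for mean reads, given as a description of genes that share 7 libraries and one annotation. Mrpl48, with 8152 bases and 560 to 770 reads in a library, and Mrps34, with 2064 bases and 127 to 350 reads, thus came out at similar FPKM.

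**Figure D3:**
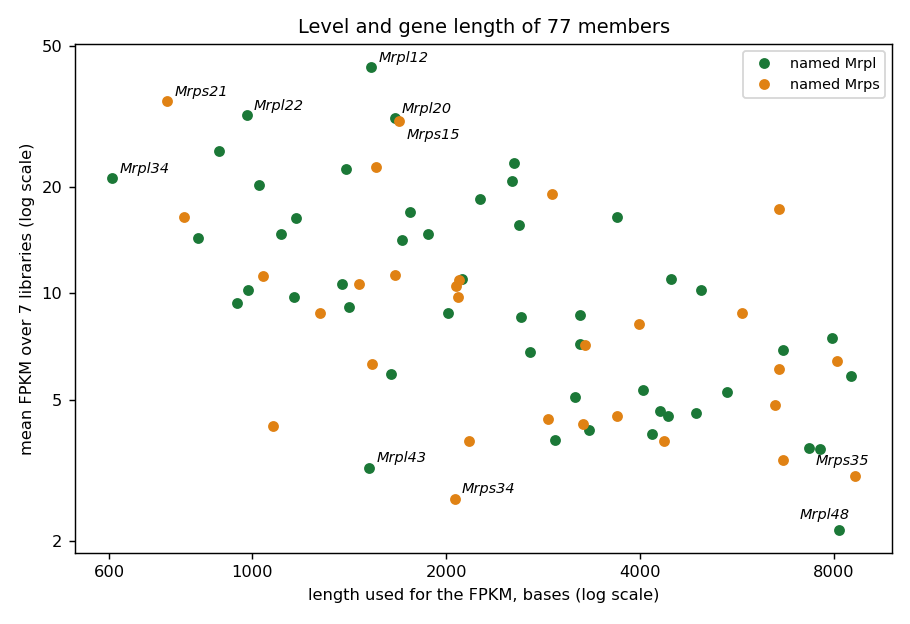
Mean FPKM over 7 libraries (y axis, log scale) against the length used for the FPKM in bases (x axis, log scale), 1 point per gene, green for the 48 named Mrpl and orange for the 29 named Mrps. The 5 genes of highest FPKM are at most 1693 bases long (Mrps15), and Mrpl48 and Mrps35, with 8152 and 8631 bases, are among the 5 lowest.

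Exons of 29 members overlap those of another gene in the files, and 48 overlap none. The 48 had a median log2 difference of -0.011, with 3 lower and 3 higher (6.25% each) at an unadjusted limma p under 0.05. The 29 had a median of -0.043, with 2 (6.90%) lower and 1 (3.45%) higher. Of all tested genes, 10.3% were lower and 5.21% higher. The largest shares were 69.8% for Mrps25 with Nr2c2, 63.4% for Mrps34 with Mapk8ip3, 36.0% for Mrpl19 with Gcfc2 and 33.4% for Mrpl43 with Twnk, all on the opposite strand. The levels and differences of these 4 members are uncertain, and the share of bases does not measure by how much. Of the 4 pseudogenes left out, Mrpl23-ps1 reached 1.09 FPKM, Mrpl48-ps 1.01 FPKM, Mrps36-ps1 0.886 FPKM and Mrps36-ps2 0.439 FPKM, each with at most 25 reads in a library.

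Many of these genes start back to back with a neighbour. Of the 68 with a promoter window, 26 had another gene starting on the opposite strand within 1000 bases upstream. Mrps11 and Mrpl46 form 1 such pair, so that there were 25 pairs. The sign of the difference was the same for 12 of 24 tested pairs and opposite for 12. Mrps12 starts 147 bases from Sars2, the mitochondrial seryl-tRNA synthetase, whose log2 difference was -0.23 (limma adjusted p = 0.395) beside -0.47 for Mrps12. Mrps11 and Mrpl46 start 42 bases apart, and their log2 differences were -0.32 and -0.027. Mrpl49 starts 192 bases from Fau, which encodes the cytosolic ribosomal protein S30 and had a log2 difference of -0.29 (limma adjusted p = 0.258) beside 0.15 for Mrpl49. Mrpl43 starts 116 bases from Twnk, the mitochondrial DNA helicase, with a log2 difference of -0.38 (limma adjusted p = 0.296) beside 0.10 for Mrpl43.

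Across libraries the members varied together only weakly. The mean Pearson correlation of a pair over the 7 libraries was 0.15 within the large subunit, 0.16 within the small subunit and 0.17 between them, and 0.014 over all tested genes. It was 0.36 for cytosolic ribosomal proteins and 0.80 for mitochondrially encoded proteins. These values describe genes that share the same libraries and their depth. Of the 77 members, 28 (36.4%) were highest in control 2 and 20 (26.0%) in control 4, against 16.7% and 17.6% of all tested genes, and 1 (1.30%) was highest in control 1, against 18.0%. Of the members, 23 were lowest in control 1 and 16 each in ZQD 1 and ZQD 2. The share of all tested genes lowest in each library is not given here, so these counts have no reference. The median of the members relative to their own means was -0.049, 0.11, -0.054 and 0.07 in controls 1 to 4 and -0.046, -0.059 and 0.012 in ZQD 1 to 3. ZQD 1 and ZQD 3 lay within the range of controls, and ZQD 2 lay just under it. Without control 2, the median log2 difference over members was 0.023, in place of -0.032, and that over all genes was -0.045.

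The transcripts that this ribosome translates showed another pattern. All 13 mitochondrially encoded proteins were higher in ZQD, with a median log2 difference of 0.63. At an unadjusted limma p under 0.05, 8 of them (61.5%) were higher, against 5.21% of all tested genes. In 5 (38.5%) all ZQD libraries lay above all controls, against 5.35% of all tested genes, and the rest had overlapping groups. No mitochondrially encoded protein passed the adjusted threshold in limma. In DESeq2 7 did, where 3.85% of all genes with an adjusted p did. Their median relative to their own means was -0.32, -0.23, 0.037 and -0.69 in controls and 0.52, 0.31 and 0.12 in ZQD. It was lowest in control 4, the library in which the ribosomal proteins stood second highest. mt-Rnr1, the small subunit rRNA, was at 311 ± 92.1 FPKM in controls and 376 ± 25.1 FPKM in ZQD (SD, n = 4 and 3), a log2 difference of 0.32 (limma adjusted p = 0.488). mt-Rnr2, the large subunit rRNA, was at 139 ± 11.3 and 168 ± 25.4 FPKM, a log2 difference of 0.26 (limma adjusted p = 0.334). Selection of poly(A) RNA makes the level of these rRNAs a measure of their polyadenylated or carried-over part only.

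By their medians, other nuclear lists lay nearer to the members than the mitochondrially encoded proteins did. The 84 tested nuclear subunits of the respiratory chain had a median log2 difference of -0.014. At an unadjusted limma p under 0.05, 9 (10.7%) were lower and 7 (8.33%) higher, against 10.3% and 5.21% of all tested genes. The 80 tested cytosolic ribosomal proteins had a median of -0.12, with 19 lower and 2 higher at that p, among them Rps14 (log2 difference -0.59, limma adjusted p = 0.154) and Rpl21 (1.06, limma adjusted p = 0.131). DESeq2 called 3 of the 80 cytosolic ones lower and 1 higher, and 0 of the 84 respiratory ones lower and 3 higher. It called 0 of the 77 mitochondrial ribosomal ones, against 3.85% of all genes with an adjusted p. The difference between the lists was not tested.

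**Figure D4:**
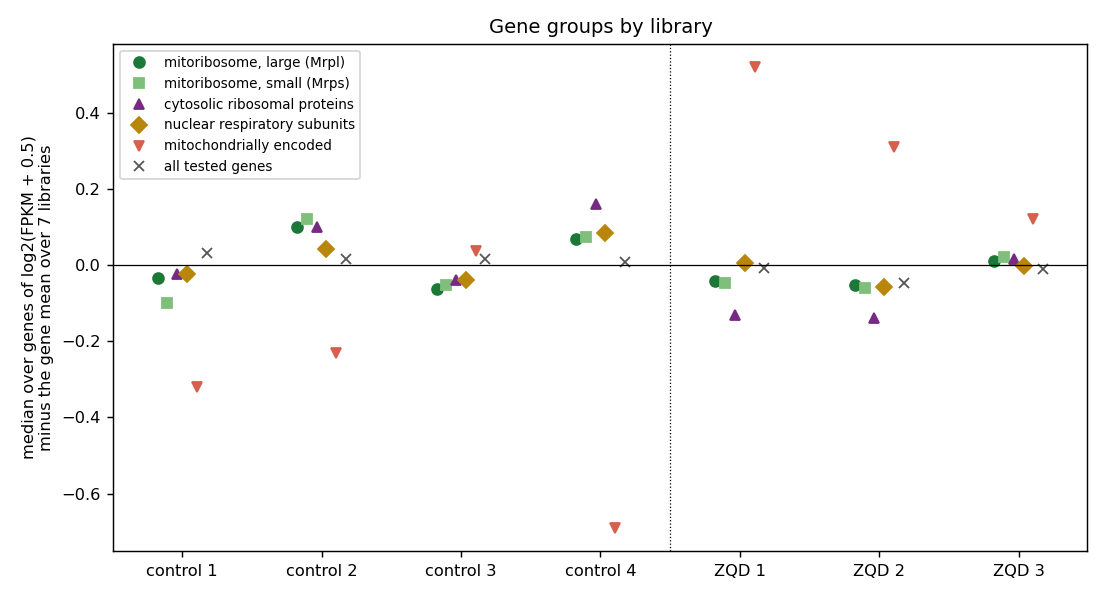
Median over the genes of each group of log2(FPKM + 0.5) minus the gene's mean over the 7 libraries (y axis), for each library (x axis, controls left of the dotted line). The large and small subunit genes (greens) stay within -0.10 and 0.12 and do not separate the groups. The median of the mitochondrially encoded proteins (red) runs from -0.69 in control 4 to 0.52 in ZQD 1. That median is higher in every ZQD library than in every control, which is not so for each of the genes.

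The 5 mitoribosomal proteins with other symbols had log2 differences within the range of the 77 members, with 4 lower and 1 higher. Gadd45gip1, a large subunit protein also known as CRIF1, was at 1.50, 1.50, 1.26 and 1.37 FPKM in controls and 1.11, 0.912 and 1.12 FPKM in ZQD. All ZQD libraries lay below all controls, with a log2 difference of -0.30 (limma adjusted p = 0.301). Dap3, a GTP-binding protein of the small subunit, had a log2 difference of -0.19 (limma adjusted p = 0.447). Chchd1, Aurkaip1 and Ptcd3, also of the small subunit, had log2 differences of 0.041, -0.038 and -0.017.

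Among 14 tested mitochondrial translation factors 0 were lower and 2 (14.3%) higher at an unadjusted limma p under 0.05, against 10.3% and 5.21% of all tested genes. The 2 were Taco1, the activator of cytochrome c oxidase subunit I translation, with a log2 difference of 0.34 (limma adjusted p = 0.209), and Gfm1, the elongation factor G1, with 0.21 (limma adjusted p = 0.307). Tufm, the elongation factor Tu and the most abundant of them, had a log2 difference of -0.23 (limma adjusted p = 0.411). Among 25 tested genes of ribosome assembly and rRNA modification 3 (12.0%) were lower and 0 higher at that p. The 3 were Mtg2 (-0.37, limma adjusted p = 0.216), Mettl17 (-0.34, limma adjusted p = 0.216) and Dhx30 (-0.28, limma adjusted p = 0.266). Mtg2 is a GTPase of large subunit assembly, Mettl17 acts on the small subunit and Dhx30 is an RNA helicase of the mitochondrial RNA granule.

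Of 20 mitochondrial aminoacyl-tRNA synthetase and amidotransferase genes 4 were lower and 2 higher at an unadjusted limma p under 0.05. Both shares were above those of all tested genes, 10.3% lower and 5.21% higher, a difference that was not tested. Ears2 had a log2 difference of -0.36 (limma adjusted p = 0.252) and Aars2 one of -0.33 (limma adjusted p = 0.216). Gatc, of the amidotransferase, had one of 0.31 (limma adjusted p = 0.303). Of 14 tested genes of mitochondrial DNA transcription and maintenance 1 was lower at that p, Twnk, and 1 higher (7.14% each). The shares of all tested genes were 10.3% and 5.21%. The higher gene of this list was Ssbp1, the single-stranded DNA binding protein (log2 difference 0.40, limma adjusted p = 0.299). Of 8 tested regulators of mitochondrial genes, 1 (12.5%) was lower at that p and 0 higher, against 10.3% and 5.21% of all tested genes. The lower one was Myc, at 97.3, 116, 103 and 118 FPKM in controls and 58.7, 88.1 and 84.1 FPKM in ZQD (log2 difference -0.51, limma adjusted p = 0.195). Those that bind the promoter motifs had log2 differences of 0.014 for Nrf1, 0.10 for Gabpa and 0.021 for Yy1. Ppargc1a, the coactivator PGC-1alpha, had at most 44 reads in a library and was not tested.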

How the data were processed

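Tumour RNA was sequenced as 4 control and 3 ZQD poly(A) libraries per the labels' protocols. The submitters' processing notes name HISAT2, Subread, featureCounts and DESeq2 (versions, build and strand setting: not given in the sources used here). For each of the 7 libraries an FPKM table was deposited, and for controls 1 and 2 also a table of gene counts. Coordinates come from GENCODE M21 (GRCm38), whose summed exon lengths equal those behind the FPKM for 77 of 77 members and 98.2% of 27021 genes.

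Differences were fitted with limma 3.58.1 (R 4.3.3, trend) on log2(FPKM + 0.5), computed from the deposited values, and adjusted over all 14838 genes. The lengths were recovered from the count tables, and reads were rebuilt from the FPKM of every library, all within 0.05 of whole numbers, for edgeR 4.0.16 and DESeq2 1.42.0. Scripts were tested on simulated data. Members and gene lists were chosen with earlier results of these data known. Named members were the 6 of smallest p per subunit and direction, the most and least abundant, the Mrps18 trio and Mrps30; elsewhere mainly the 2 of smallest p and the most abundant of each list. Others were named after their values were seen, such as those with the largest exon overlaps, Mrpl11, Mrpl55 and the neighbours. Alternatives covered scaling, pseudocount, filter, tool, library weights and left-out libraries. Figures were drawn with matplotlib 3.10.9.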

Additional observations from a re-analysis of the deposited data

Results flagged for a closer look

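Within the controls, 3 of the 77 members had a library standing apart from the other 3, by a gap larger than the 95% critical value of Dixon's test. Chance gives this in about 5% of groups. Mrpl15 was highest in control 2, at 7.75 FPKM beside 5.14 to 5.57 FPKM. Mrps11 was highest in control 2, at 5.11 FPKM beside 3.86 to 4.00 FPKM. Mrps6 was highest in control 3, at 6.82 FPKM beside 5.51 to 5.71 FPKM.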

How the results depend on the processing

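No member passed the adjusted threshold in any of the 21 fits, and up to 14 of the 77 changed the sign of their difference (without control 2). The 5 members lower at an unadjusted p under 0.05 became 2 with DESeq2, edgeR, TMM factors, median-of-ratios factors or scaling without mitochondrially encoded genes, 17 on the TPM scale, 1 with library weights and 1 to 6 with a library left out. Of all genes, 7.05 to 7.65% were lower at that p in the fits with 2 such members, from DESeq2 to scaling without mitochondrially encoded genes. The share was 19.2% on the TPM scale (members 22.1%), 9.99% with library weights (members 1.30%) and 7.53 to 10.1% with a library left out (members 1.30 to 7.79%). The 4 higher members became 1 (1.30%) on the TPM scale and 1 to 5 (1.30 to 6.49%) with a library left out, against 2.55% and 4.03 to 5.53% of all genes. Replicate numbers did not pair the libraries (correlations of deviations 0.252, 0.1 and -0.15), and the fit with a replicate block gave 2 lower and 2 higher members (2.60% each, against 8.03% and 4.02% of all genes), 0 members past the adjusted threshold and 1 gene past it overall. Subunit medians were both -0.13 on the TPM scale. The large minus small difference was 0.038 with library weights and -0.022 to 0.052 with a library left out. Members with all ZQD libraries below all controls numbered 11 on the TPM scale, 2 with median-of-ratios or TMM factors and 4 to 11 with a library left out, and those above 1 on the TPM scale and 5 to 10 with a library left out. Of all tested genes, 17.9% lay below on the TPM scale, 7.05% and 7.08% with those factors and 11.7 to 17.2% with a library left out, and 2.51% lay above on the TPM scale and 6.63 to 9.59% with a library left out. The causes of these shifts were not tested, beyond the fewer samples of the left-out fits. With 4 against 3 libraries the median standard error was 0.111 on the log2 scale, which limits the size of change that could be called.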
